A study of Mus musculus with 31 samples.

Results

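Endothelial, mural and fibroblast marker genes were examined as 32 genes chosen by symbol, 18 endothelial, 8 mural and 6 fibroblast, among the 55401 genes of 12 RNA-seq libraries labelled as sorted mouse astrocytes. Mural cells are the pericytes and smooth muscle cells of the vessel wall. All mice were C57Bl/6 females with no allele or transgene named in the sample labels. The title of every RNA-seq library carries the label SPF, which all groups share. Their age is given as 10 weeks, and as 10 to 12 weeks in the treatment protocol. Every mouse was injected into the lateral ventricles of the brain. The 2X cytokine group received IL-1β at 100 ng/mL with TNF-α at 50 ng/mL and received both again on day 7. The 2X PBS group received the PBS vehicle on the same 2 occasions. The 1X cytokine group received IL-1β and TNF-α at those concentrations on day 7 only, and the 1X PBS group received PBS on day 7 only. Cells were sorted 18 to 24 hours after the last injection. Each group held 3 libraries. The short description of the cytokine samples names TNF-α alone. The markers of the sort were not among the sources used here, and the labels do not state whether a library is 1 animal. A gene's level is given as CPM, its estimated counts scaled to a common library total, or as TPM. TPM corrects for transcript length and is scaled to a fixed sum per library, without the scaling between libraries used for CPM. The 2 units can therefore differ by more than length.

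Endothelial cells line the vessels. In the brain they seal them with the claudin-5 tight junction and carry nutrients and drugs across the barrier by dedicated transporters. Pericytes share the endothelial basement membrane, are recruited through the receptor encoded by Pdgfrb, and set vessel tone and barrier tightness, while smooth muscle cells with Acta2, Tagln and Myh11 wrap arterioles. Fibroblasts of the meninges and of the perivascular space produce fibrillar collagen and small proteoglycans such as decorin and lumican. Astrocyte endfeet cover the same vessels.

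Promoters are shown for Flt1 and Eng, which hold the letters of an ETS-type motif found in many endothelial promoters, and for Kcnj8 and Abcc9, a neighbouring pair of pericyte genes on chromosome 6 that lie 16247 bases apart and are described together below. The windows run from 250 bases before to 50 bases after the gene start (RefSeq, GRCm38.p6), 5′ to 3′ on the gene's strand. Capitals mark GGAAGT or its complement ACTTCC. The Flt1 window lies at chr5:147725962-147726261 on the minus strand, the Eng window at chr2:32646345-32646644 on the plus strand, the Kcnj8 window at chr6:142571565-142571864 on the minus strand and the Abcc9 window at chr6:142702225-142702524 on the minus strand.
Flt1: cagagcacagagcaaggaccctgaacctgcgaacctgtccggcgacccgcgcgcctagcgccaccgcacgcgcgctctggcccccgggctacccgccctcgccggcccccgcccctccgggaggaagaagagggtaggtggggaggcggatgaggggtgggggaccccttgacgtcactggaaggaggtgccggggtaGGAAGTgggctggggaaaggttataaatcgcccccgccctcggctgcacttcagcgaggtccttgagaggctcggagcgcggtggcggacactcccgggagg
Eng: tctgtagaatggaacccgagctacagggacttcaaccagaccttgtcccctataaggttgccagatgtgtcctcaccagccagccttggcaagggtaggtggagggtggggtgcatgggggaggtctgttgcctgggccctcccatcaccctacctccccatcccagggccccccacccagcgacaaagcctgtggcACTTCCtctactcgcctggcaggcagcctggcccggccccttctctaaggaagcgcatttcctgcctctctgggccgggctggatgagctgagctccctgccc
Kcnj8: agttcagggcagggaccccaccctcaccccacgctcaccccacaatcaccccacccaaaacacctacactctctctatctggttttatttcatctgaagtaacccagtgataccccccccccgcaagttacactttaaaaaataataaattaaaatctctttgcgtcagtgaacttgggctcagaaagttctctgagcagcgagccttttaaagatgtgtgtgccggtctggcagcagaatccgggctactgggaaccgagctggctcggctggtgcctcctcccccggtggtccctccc
Abcc9: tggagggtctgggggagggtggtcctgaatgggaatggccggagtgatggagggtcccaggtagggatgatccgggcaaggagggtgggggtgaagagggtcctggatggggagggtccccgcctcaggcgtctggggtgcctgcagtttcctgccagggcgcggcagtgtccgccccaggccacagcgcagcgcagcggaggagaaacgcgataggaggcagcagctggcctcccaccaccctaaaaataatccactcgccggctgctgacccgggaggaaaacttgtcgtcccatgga
The letters begin 52 bases before the start of Flt1, on the gene's strand, and 53 bases before the start of Eng, on the other strand. The Kcnj8 and Abcc9 windows hold no match. Of the 32 members, 21 have a window in the table. The motif, sought on both strands, is in 7 of 16 windows of 13 endothelial members, in 0 of 5 windows of mural members and in 0 of 6 windows of 3 fibroblast members, against 23.8% of all 32851 windows. A match is a description of the letters only.

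Library totals ran from 1878418 to 5521679 estimated counts, so that 3 counts lie between 0.543 and 1.60 CPM. Most libraries ran against their labels in genes known to be induced in astrocytes by IL-1β and TNF-α. Lcn2, an iron-binding acute-phase protein, had 15.0, 2.26 and 1.20 CPM in replicates 1 to 3 of 2X cytokine, against 570, 363 and 426 CPM in 2X PBS. It had 797, 11.5 and 3.85 CPM in 1X cytokine, against 5.33, 1076 and 776 CPM in 1X PBS. Only replicate 1 of 1X cytokine was high and only replicate 1 of 1X PBS was low, as their labels would have it, and the other 10 libraries lay the other way. Serpina3n and Gfap split the libraries in the same way, while Timp1 was at 143, 124 and 129 CPM in 1X PBS and 17.5, 6.03 and 11.1 CPM in 2X cytokine. The labels were kept as given and groups are named by them throughout. Whether any were exchanged was not tested. An exchange of the cytokine and PBS labels of whole groups would turn the directions between cytokine and PBS given here. The comparisons of 2X with 1X within cytokine and within PBS would then trade places. An exchange of single libraries would not simply turn the directions. Replicate 1 of 1X cytokine and replicates 2 and 3 of 1X PBS also stood apart in cell content: their 10 astrocyte markers summed to 9814, 7163 and 6662 CPM, against 17560 to 25290 CPM in the other 9 libraries. Monocyte and macrophage genes reached 1480 and 1329 CPM in 1X PBS replicates 2 and 3, against 18.0 to 405 CPM in the other libraries, and erythrocyte genes 64890 CPM in 1X PBS replicate 3. In TPM the erythrocyte genes summed to 177400 in that library, which leaves less of the fixed sum to its other genes. Correlations of log2(CPM + 0.5) between libraries ran from 0.962 to 0.985 over all genes. The labels name no batch.

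The endothelial members were lower per length than the mural and fibroblast members by their medians. The median of the members' mean TPM over 12 libraries was 9.39 for the endothelial members (from 1.12 for Tie1 to 91.5 for Mfsd2a), 164 for the mural members (from 7.56 for Abcc9 to 2517 for Acta2) and 94.5 for the fibroblast members (from 17.4 for Lum to 142 for Dcn). All 32 passed the filter on low counts. Of the 18 endothelial members, 12 had more than 3 estimated counts in every library and 6 (Tek, Tie1, Ly6c1, Slc38a5, Egfl7 and Vwf) had 3 or fewer counts in at least 1 library, against 0 of the 8 mural and 0 of the 6 fibroblast members. Of the labelled cell type, the markers Aldoc and Slc1a3 averaged 4877 and 1749 TPM over 12 libraries, against 21150 TPM of Ttr, a gene of choroid plexus epithelium. The summed TPM of 10 choroid plexus genes was above that of 10 astrocyte genes in 9 of 12 libraries, all but replicates 1 and 2 of 2X cytokine and replicate 1 of 1X PBS. This depended on the unit. In CPM it held in only 3 of 12 libraries, replicate 1 of 1X cytokine and replicates 2 and 3 of 1X PBS.

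**Figure D1:**
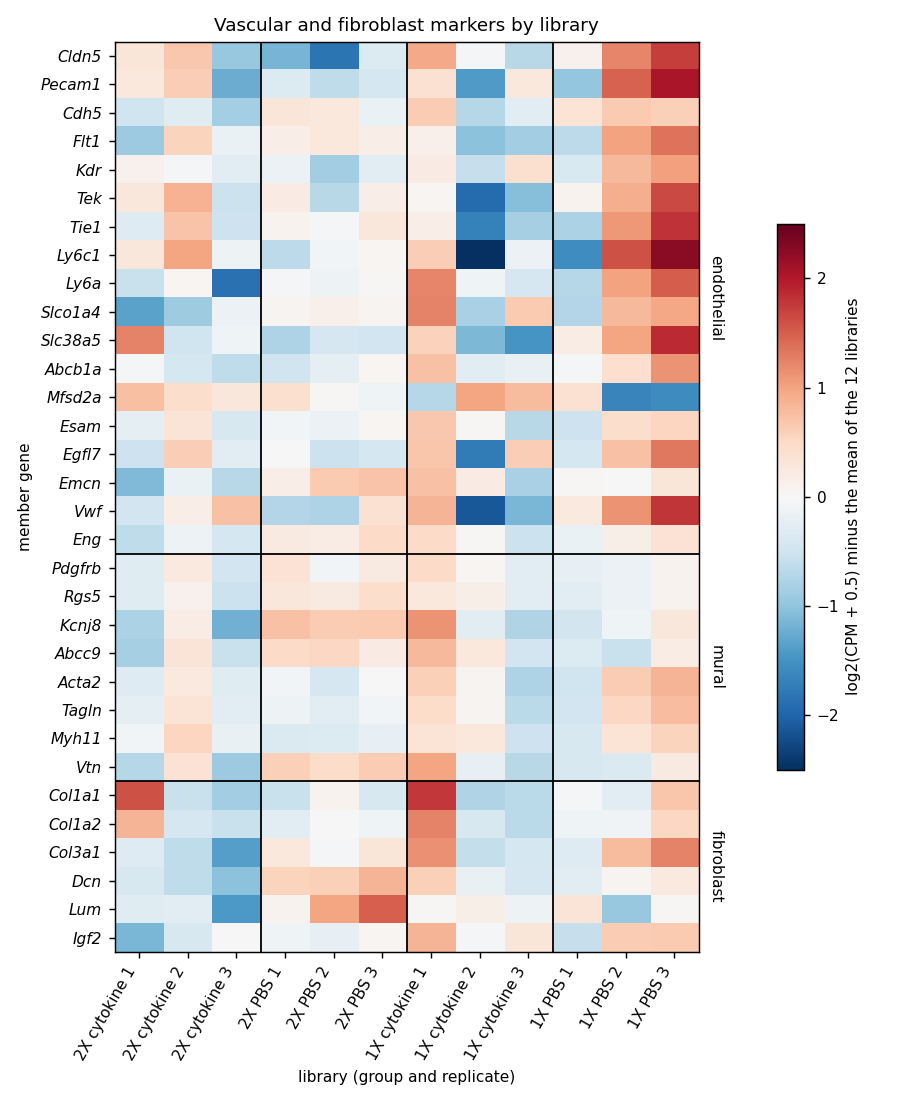
Each row is a member gene and each column a library, grouped as 2X cytokine, 2X PBS, 1X cytokine and 1X PBS; color is log2(CPM + 0.5) minus the gene's mean over the 12 libraries. Most endothelial rows are darkest red in replicates 2 and 3 of 1X PBS, Mfsd2a is blue there, and Col1a1 is red in replicate 1 of 2X cytokine and of 1X cytokine.

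Among the endothelial members, the adhesion and junction genes come first. Cldn5, the main claudin of brain endothelial tight junctions, had 30.0, 39.2 and 12.3 CPM in 2X cytokine, 10.6, 6.51 and 18.9 CPM in 2X PBS, 47.2, 23.8 and 14.8 CPM in 1X cytokine and 26.3, 57.1 and 81.6 CPM in 1X PBS. All 3 libraries of 2X PBS lay below all 3 of 1X PBS. Pecam1, the CD31 adhesion molecule, had 6.07, 7.91 and 1.80 CPM in 2X cytokine, 3.81, 2.99 and 3.55 CPM in 2X PBS, 6.64, 1.54 and 6.04 CPM in 1X cytokine and 2.28, 14.7 and 22.0 CPM in 1X PBS. Its highest values were in the same 2 libraries as those of Cldn5. Cdh5, the cadherin of endothelial adherens junctions, ran from 2.40 to 3.77 CPM in 2X cytokine, from 4.14 to 5.92 CPM in 2X PBS, from 2.69 to 7.62 CPM in 1X cytokine and from 6.09 to 7.76 CPM in 1X PBS. Esam, an adhesion molecule of endothelial tight junctions, averaged 87.2 TPM, next to Mfsd2a among the endothelial members, and had 83.2, 122 and 73.8 CPM in 2X cytokine, 93.5, 88.7 and 101 CPM in 2X PBS, 157, 99.8 and 60.4 CPM in 1X cytokine and 68.5, 132 and 141 CPM in 1X PBS.

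The growth factor receptors were low per length. Flt1 and Kdr, the receptors of VEGF, had means of 1.23 and 1.69 TPM over 12 libraries, and Tek and Tie1, the angiopoietin receptor and its partner, had 1.80 and 1.12 TPM. In CPM each of the 4 was highest in 1X PBS replicate 3, while in TPM Flt1 and Tek were highest in 1X PBS replicate 2. Replicate 3 had 12.3 CPM of Flt1, 13.9 of Kdr, 9.97 of Tek and 9.51 of Tie1. Tek and Tie1 had 1 estimated count each in 1X cytokine replicate 2. Eng, a co-receptor for TGF-β family ligands, had 35.7, 50.5 and 40.8 CPM in 2X cytokine, 64.8, 63.0 and 77.6 CPM in 2X PBS, 77.9, 56.5 and 37.9 CPM in 1X cytokine and 49.1, 61.2 and 71.7 CPM in 1X PBS. The 2X groups did not overlap in CPM. Emcn, a sialomucin of capillaries and veins, had 3.93, 7.91 and 5.40 CPM in 2X cytokine and 10.2, 14.4 and 15.1 CPM in 2X PBS, again with no overlap in CPM, and ran from 4.95 to 15.2 CPM in the 1X groups. In TPM both genes overlapped: Eng reached 35.4 TPM in 2X cytokine, against 33.0 TPM or more in 2X PBS, and Emcn reached 10.7 TPM in 2X cytokine, against 9.83 TPM or more in 2X PBS.

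The secreted and surface markers shared a peak in 1X PBS replicate 3 in CPM. In TPM this held for Egfl7 and Ly6c1, while Vwf was highest in 2X PBS replicate 3 and Ly6a in 1X cytokine replicate 1. Vwf, the clotting factor stored in endothelial cells, had 24.3 CPM in 1X PBS replicate 3 and 1.15 to 15.2 CPM elsewhere. Egfl7, a secreted matrix protein of endothelium, had 10.2 CPM in that library and 0.768 to 6.65 CPM elsewhere. Ly6c1 and Ly6a, GPI-anchored surface proteins, had 22.5 and 39.2 CPM there. Ly6c1 was at 0 in 1X cytokine replicate 2, and 33.0% of its 31-base stretches are also in Ly6c2, a monocyte gene that ran from 0 to 13.7 CPM, so their split of reads is uncertain.

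The barrier transporters divided. Mfsd2a, which carries docosahexaenoic acid as lysolipid into the brain, was the highest endothelial member per length and had 183, 148 and 133 CPM in 2X cytokine, 144, 111 and 102 CPM in 2X PBS, 66.6, 218 and 188 CPM in 1X cytokine and 142, 34.4 and 36.4 CPM in 1X PBS. Its 3 lowest values were in the 3 libraries with the lowest astrocyte sums, where Cldn5 had its 3 highest. Over the 12 libraries the highest Mfsd2a value was 6.34 times the lowest, and 2.13 times when each was given per 1000 CPM of 9 astrocyte genes (those of the list other than Gfap). The same division widened the range of Cldn5 to 34.3 times, against 12.5 times undivided, that of Pecam1 to 45.3 times, against 14.3, and that of Acta2 to 11.3 times, against 3.10. This division was chosen after the values were seen. Dividing by a sum that is low where Mfsd2a is low and Cldn5 is high tends to narrow the former range and widen the latter. These ranges are therefore not a separate result. The part of astrocytes in the Mfsd2a values was not tested. Slc38a5, a glutamine transporter, ran from 1.10 to 15.8 CPM and was highest in 1X PBS replicate 3. Abcb1a, the drug efflux pump P-glycoprotein, ran from 10.8 to 37.6 CPM and had its maximum in that library too, though in TPM it was highest in 1X cytokine replicate 3. Slco1a4, an organic anion transporter, had 7.50, 10.5 and 18.0 CPM in 2X cytokine, 20.7, 21.7 and 20.7 CPM in 2X PBS, 47.4, 11.1 and 31.3 CPM in 1X cytokine and 11.8, 35.2 and 39.2 CPM in 1X PBS. Of Abcb1a 21.7% of the 31-base stretches are also in Abcb1b (mean 4.66 CPM). Of Slco1a4 3.40% are in Slco1a5 (7.22 CPM) and 1.65% in Slco1a6 (0.946 CPM). The other relatives Ly6g, Acta1, Slco1a1 and Actc1 had means under 1 CPM.

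**Figure D2:**
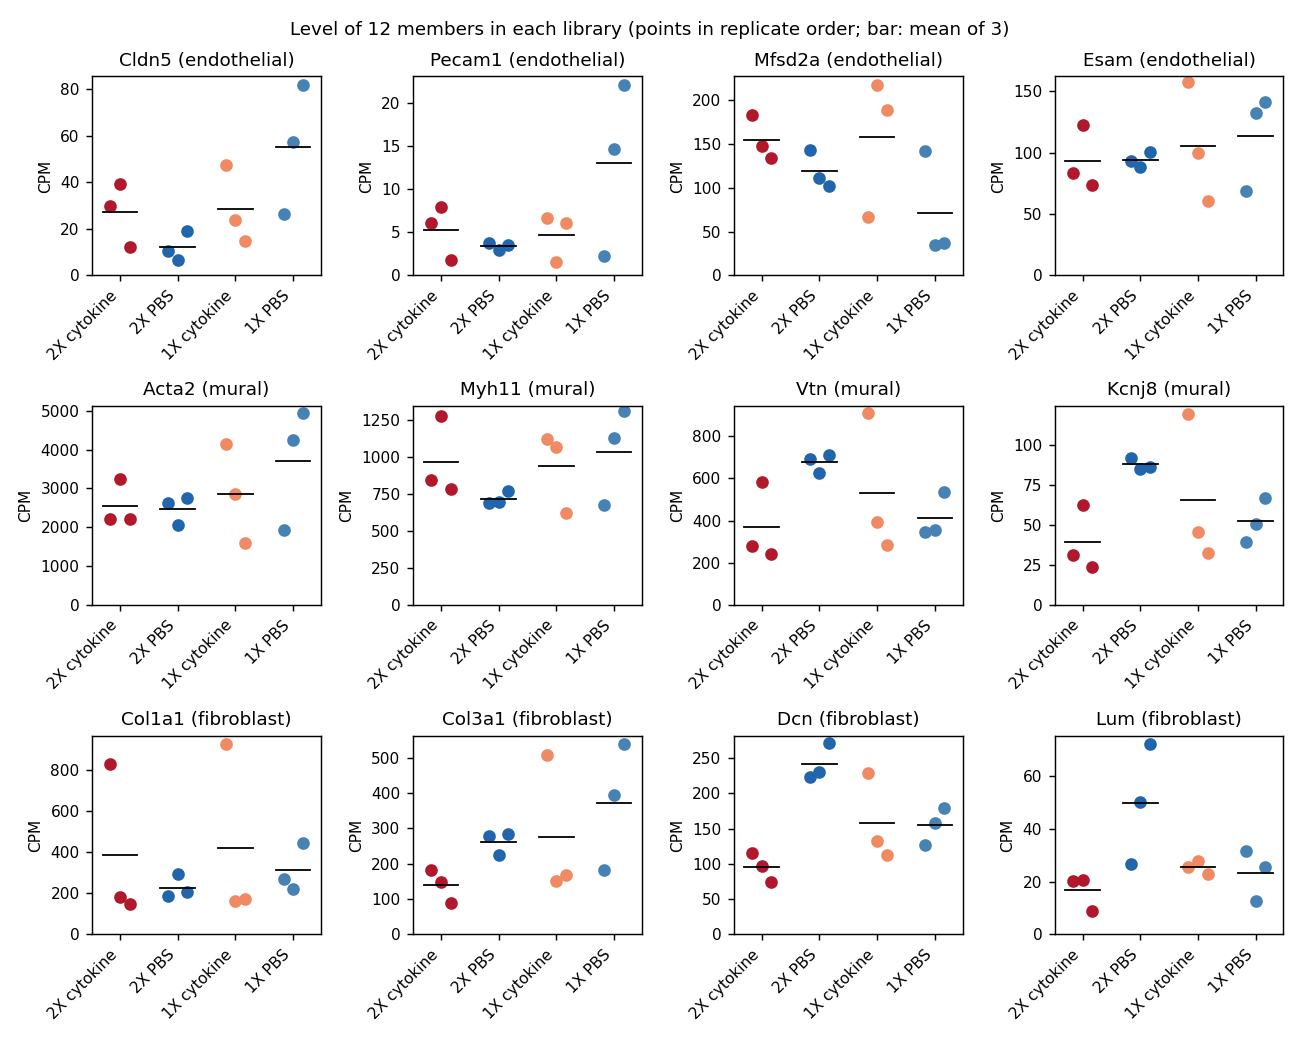
CPM of 12 members, 1 point per library in replicate order with the mean of 3 as a bar, groups from left to right 2X cytokine, 2X PBS, 1X cytokine and 1X PBS. Dcn has 74.4 to 115 CPM in 2X cytokine and 223 to 272 CPM in 2X PBS, while the 1X groups spread over replicates.

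The mural members split by subtype. Acta2, the smooth muscle actin, had 2206, 3236 and 2214 CPM in 2X cytokine, 2615, 2061 and 2751 CPM in 2X PBS, 4135, 2860 and 1598 CPM in 1X cytokine and 1935, 4260 and 4954 CPM in 1X PBS. Its 3 highest values were in the 3 libraries with the lowest astrocyte sums. Tagln, an actin-binding protein of smooth muscle, had its 3 highest values in the same libraries, at 725 CPM in 1X cytokine replicate 1 and 754 and 908 CPM in 1X PBS replicates 2 and 3, but in TPM it was highest in 2X cytokine replicate 2. Myh11, the smooth muscle myosin heavy chain, had 843, 1278 and 782 CPM in 2X cytokine and 688, 694 and 769 CPM in 2X PBS, which did not overlap, and ran from 618 to 1308 CPM in the 1X groups. No 31-base stretch of Acta2 is in Actg2.

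The pericyte members were lower in 2X cytokine than in 2X PBS by their means. Pdgfrb, the receptor of PDGF-B, had 275, 401 and 244 CPM in 2X cytokine and 433, 322 and 397 CPM in 2X PBS, which overlapped. Rgs5, a regulator of G-protein signalling, had 311, 412 and 265 CPM in 2X cytokine, 466, 448 and 519 CPM in 2X PBS, 457, 423 and 316 CPM in 1X cytokine and 313, 348 and 405 CPM in 1X PBS. The 2X groups did not overlap. Kcnj8, the pore subunit of the vascular ATP-sensitive potassium channel, had 31.4, 62.2 and 23.7 CPM in 2X cytokine, 91.8, 85.2 and 86.5 CPM in 2X PBS, 120, 45.7 and 32.4 CPM in 1X cytokine and 39.6, 50.7 and 67.0 CPM in 1X PBS. Abcc9, the regulatory SUR2 subunit of the same channel, had 21.1, 47.1 and 25.5 CPM in 2X cytokine, 52.5, 53.9 and 43.2 CPM in 2X PBS, 66.1, 45.3 and 26.9 CPM in 1X cytokine and 29.7, 25.5 and 42.7 CPM in 1X PBS. Both subunits were highest in 1X cytokine replicate 1, and the ratio of Kcnj8 to Abcc9 ran from 0.929 to 2.00. Vtn, vitronectin, an adhesive glycoprotein made by brain pericytes, had 278, 584 and 243 CPM in 2X cytokine, 691, 628 and 709 CPM in 2X PBS, 910, 395 and 284 CPM in 1X cytokine and 348, 357 and 534 CPM in 1X PBS. It too had no overlap between the 2X groups.

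Within a library, the summed CPM of Acta2, Tagln and Myh11 over that of Pdgfrb, Rgs5, Kcnj8, Abcc9 and Vtn does not depend on scaling. This ratio was 3.82, 3.44 and 4.28 in 2X cytokine and 2.19, 2.08 and 2.29 in 2X PBS, with means of 3.85 ± 0.42 and 2.19 ± 0.11 (SD, n = 3 each), and the groups did not overlap. In 1X cytokine it was 2.96, 3.57 and 2.71, and in 1X PBS 2.92, 5.64 and 5.09, which overlapped. The ratio was lowest in the 3 libraries of 2X PBS and highest in replicates 2 and 3 of 1X PBS, so libraries with high Lcn2 lay at both ends. It was formed after the values were seen and has no test.

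**Figure D3:**
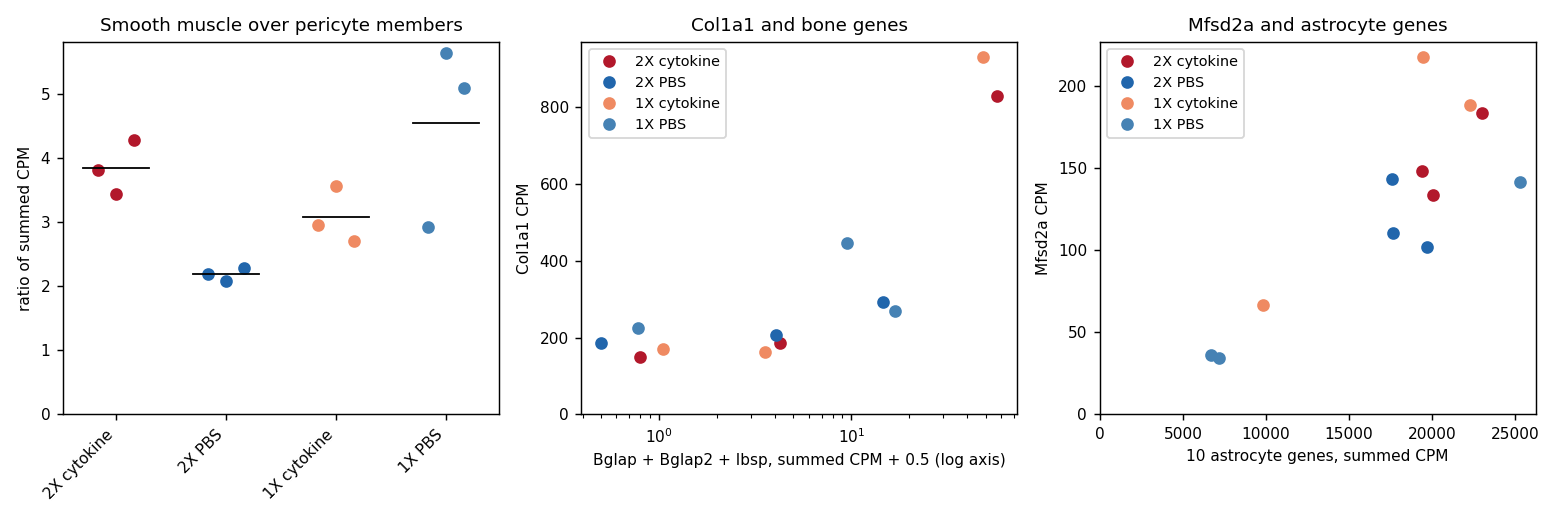
Left, smooth muscle over pericyte members per library with the mean of 3 as a bar; middle, Col1a1 CPM against summed Bglap, Bglap2 and Ibsp CPM + 0.5 on a log axis; right, Mfsd2a CPM against summed CPM of 10 astrocyte genes. The ratio is 3.44 to 4.28 in 2X cytokine and 2.08 to 2.29 in 2X PBS, 2 libraries with 829 and 930 CPM of Col1a1 stand alone in the middle panel, and 3 libraries with low astrocyte sums have the lowest Mfsd2a.

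The fibroblast members fell into 2 patterns. Col1a1 and Col1a2, which encode the chains of type I collagen, were set apart by single libraries. Col1a1 had 829, 185 and 149 CPM in 2X cytokine, 186, 293 and 206 CPM in 2X PBS, 930, 163 and 171 CPM in 1X cytokine and 270, 224 and 446 CPM in 1X PBS. Col1a2 had 615 and 803 CPM in replicate 1 of 2X cytokine and replicate 1 of 1X cytokine, against 213 to 489 CPM in the other 10 libraries. The same 2 libraries were highest in the bone genes Bglap, Bglap2 and Ibsp, picked after the values were seen. Ibsp, bone sialoprotein, had 24.6 and 26.5 CPM there and 0 to 8.37 CPM in the others, and Bglap, osteocalcin, had 16.1 and 14.0 CPM there and 0 to 5.10 CPM in the others. Whether the whole list of 10 bone matrix and osteoblast genes set 2X cytokine replicate 1 apart depended on the unit. It summed to 298 CPM there, against 176 and 155 CPM in replicates 2 and 3 of that group and 349 to 379 CPM in 2X PBS. In TPM it summed to 382 there and 400 in 1X cytokine replicate 1, against 117 to 317 in the others. Of those 2 TPM sums, the picked genes Bglap, Bglap2 and Ibsp made up 201.5 and 139.1, so the list is not independent of them. The 3 highest genes of the list by mean CPM, Alpl, Spp1 and Dmp1, went otherwise. They had 133.5, 61.4 and 40.0 CPM in 2X cytokine replicate 1. Their maxima of 183, 150 and 68.6 CPM were in 2X PBS libraries. The part of bone in these collagen values was not tested.

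Col3a1, the type III collagen of vessel walls and fibroblasts, had 182, 148 and 88.5 CPM in 2X cytokine, 277, 225 and 284 CPM in 2X PBS, 508, 151 and 169 CPM in 1X cytokine and 183, 396 and 540 CPM in 1X PBS. The ratio of Col1a1 to Col3a1 was 4.54 in 2X cytokine replicate 1 and 0.567 to 1.83 in the others. Dcn, the proteoglycan decorin that binds collagen fibrils and TGF-β, had 115, 97.6 and 74.4 CPM in 2X cytokine, 223, 230 and 272 CPM in 2X PBS, 228, 133 and 113 CPM in 1X cytokine and 127, 158 and 180 CPM in 1X PBS. Lum, its neighbour 46984 bases away on chromosome 10, encodes lumican and had 20.3, 20.7 and 9.0 CPM in 2X cytokine, 26.7, 50.2 and 72.2 CPM in 2X PBS, 25.6, 28.0 and 23.1 CPM in 1X cytokine and 31.6, 12.7 and 25.5 CPM in 1X PBS. All 3 libraries of 2X cytokine lay below all 3 of 2X PBS for Col3a1, Dcn and Lum. Igf2, a growth factor of meninges and choroid plexus, ran from 30.7 to 68.4 CPM in 2X cytokine, 59.3 to 71.4 CPM in 2X PBS, 66.4 to 124 CPM in 1X cytokine and 46.0 to 108 CPM in 1X PBS. Choroid plexus genes moved with it in part, since their sum was lowest in 2X cytokine replicate 1 at 3928 CPM, as was Igf2, and highest in 1X cytokine replicate 1 at 29020 CPM, as was Igf2. Of Igf2 61.9% of the 31-base stretches are also in the overlapping transcript Gm49394 (mean 0.365 CPM).

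The first exon of decorin transcripts differed between the 2X groups in its estimated share. The transcripts Dcn-201 and Dcn-202 share 7 of their 8 exons and differ in exon 1, at chr10:97479609-97479789 for Dcn-201 and chr10:97482367-97482547 for Dcn-202 (GENCODE M21, GRCm38, plus strand), 2758 bases downstream. Dcn-202 took 19.9%, 14.8% and 18.5% of the estimated Dcn counts in 2X cytokine and 44.0%, 48.5% and 60.6% in 2X PBS. In the 1X groups it took 33.6%, 39.3% and 12.5% in 1X cytokine and 24.4%, 41.5% and 28.0% in 1X PBS, which overlapped. Dcn-202 had 17.0 ± 5.08 CPM in 2X cytokine and 125 ± 35.3 CPM in 2X PBS (SD, n = 3 each), while Dcn-201 had 78.4 ± 16.0 CPM in 2X cytokine and 116 ± 9.23 CPM in 2X PBS. The shares rest on kallisto's division of reads, only reads that reach exon 1 tell the transcripts apart, and the difference was not tested. Such shares varied for other members too: Abcc9-203 held 0.435% to 100% of Abcc9 over the 12 libraries and Kcnj8-202 held 27.9% to 81.4% of Kcnj8, while Acta2-201 held 89.3% to 92.0% of Acta2. The share of Tie1-201, a gene of few counts, also did not overlap between the 2X groups, at 35.2% to 68.7% in 2X cytokine and 81.9% to 100% in 2X PBS.

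The comparison of 2 cytokine with 2 PBS injections holds the response to the last injection together with any effect of the earlier one. It cannot tell these apart. Lcn2, Serpina3n, Timp1 and Gfap all fell in the libraries labelled 2X cytokine in the fit of the 6 libraries of the 2X groups, Lcn2 by 6.22 on the log2 scale, which runs against the label. In edgeR's quasi-likelihood test on all 12 libraries, 0 of 32 members passed an adjusted p of 0.05, against 0.0345% of the 14490 genes tested (5 genes, all lower). At an unadjusted p under 0.05, 6 members and 1402 genes passed, and DESeq2 called 2 members, Dcn and Lum, among 114 genes. The lowest adjusted p was that of Dcn, 0.126, at a log2 fold change of -1.34 ± 0.26 (SE). The median log2 fold change was 0.18 for the endothelial, -0.43 for the mural and -0.63 for the fibroblast members, against -0.0034 for all genes tested.

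Fitted on the 6 libraries of the 2X groups alone, 7 members fell in 2X cytokine and 0 rose, of 29 tested, at the same threshold. All genes gave 7.74% called (1065 of 13765), and 5.31% called lower. Among the fibroblast members, Dcn fell by 1.33 on the log2 scale (SE 0.14, adjusted p 0.000101 by edgeR), Lum by 1.62 (SE 0.34, adjusted p 0.0109) and Col3a1 by 0.90 (SE 0.20, adjusted p 0.0149). Among the mural members, the pericyte genes Kcnj8 and Rgs5 fell by 1.18 (SE 0.25, adjusted p 0.0110) and 0.52 (SE 0.14, adjusted p 0.0396). Vtn, at -0.87 ± 0.25 (adjusted p 0.0547), and Abcc9, at -0.68, did not pass. Acta2, Tagln and Myh11 had log2 fold changes of 0.04, 0.12 and 0.43 in the fit of 12 libraries and passed in neither fit. Without 2X cytokine replicate 2, Acta2 and Tagln turned to -0.15 and -0.10. Of the endothelial members, Emcn fell by 1.22 (SE 0.29, adjusted p 0.0232) and Eng by 0.68 (SE 0.14, adjusted p 0.0100). Cldn5 (1.19), Pecam1 (0.60) and Mfsd2a (0.39) had positive values in the fit of 12 libraries and did not pass. Tie1, Slc38a5 and Egfl7 did not pass the count filter of the 6 libraries.

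**Figure D4:**
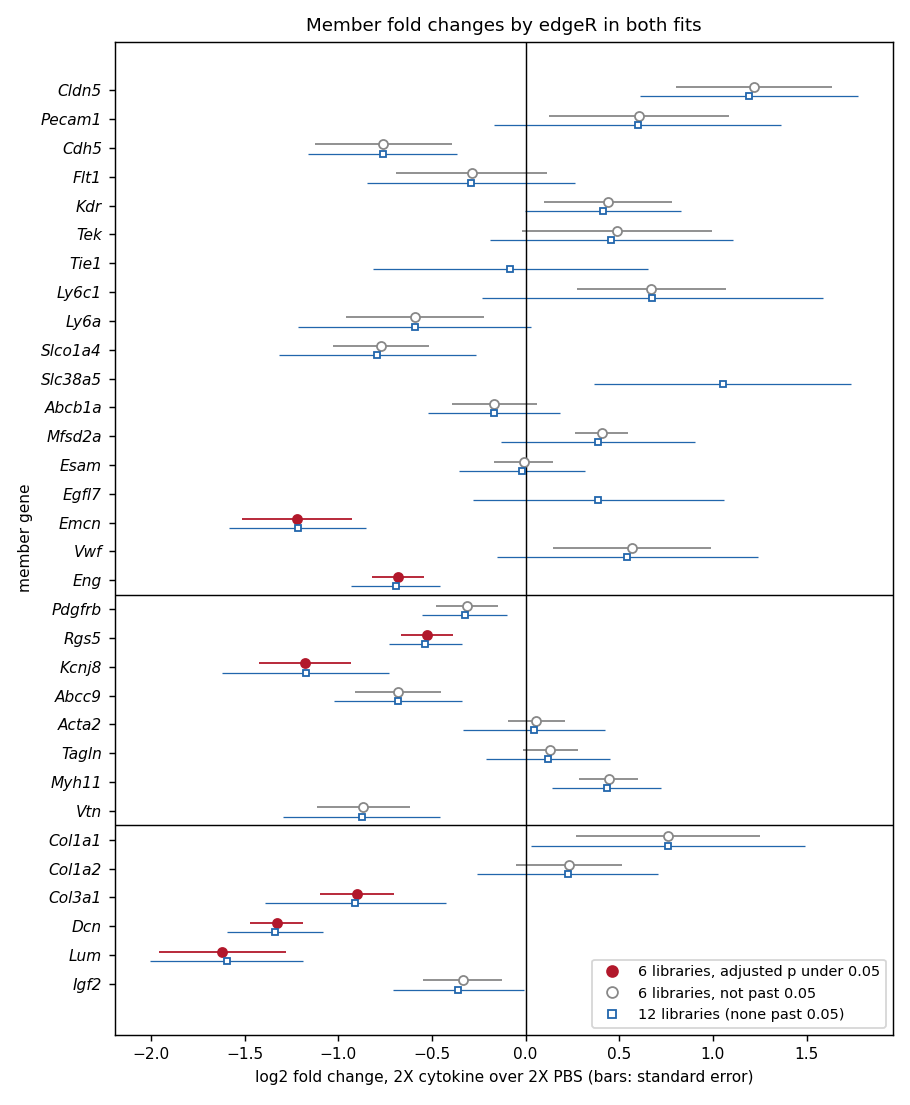
Log2 fold change of each member, 2X cytokine over 2X PBS, with standard errors; circles are the fit of the 6 libraries of these groups (filled red where the adjusted p is under 0.05) and squares the fit of 12 libraries, in which none passed. Estimates of both fits nearly coincide while the error bars of the fit of 12 are wider, and the 7 red points are all below 0; 3 members have no circle.

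The groups did not overlap for 10 members that were lower in 2X cytokine (Cdh5, Slco1a4, Emcn, Eng, Rgs5, Kcnj8, Vtn, Col3a1, Dcn and Lum), against 14.1% of all genes, and for 1 that was higher (Myh11), against 11.2%. These are CPM: in TPM the endothelial members Cdh5, Slco1a4, Emcn and Eng overlapped. Marker levels of other cells moved with these groups. In 2X cytokine, 4 of 10 microglia, 5 of 7 tested monocyte and macrophage and 3 of 6 tested neutrophil genes fell in the fit of 6 libraries, and the monocyte sum was 18.0 to 75.0 CPM, against 385 to 405 CPM in 2X PBS. The neutrophil sum was 9.30 to 166 CPM in 2X cytokine and 197 to 237 CPM in 2X PBS. Some neutrophil genes went the other way. In the fit of 12 libraries Ngp, Mmp8 and Ltf had log2 fold changes of 2.29, 1.61 and 1.59. Ngp and Ltf were highest in 2X cytokine replicate 1, at 37.1 and 26.1 CPM. Of 10 genes each, 7 oligodendrocyte and 3 ependymal genes rose, 2 astrocyte genes rose and 1 fell, and 0 choroid plexus genes passed by edgeR, with 6 at an unadjusted p under 0.05. Of 7 tested genes each, 0 erythrocyte genes passed, with 7 at an unadjusted p under 0.05, and 0 neuron genes passed, with 2. None of the genes of these lists passed in the fit of 12 libraries. The part of other cells in the member values was not tested. In sorted bulk RNA, fewer cells of a type and less RNA per cell cannot be told apart.

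Related vascular lists gave the following in the same fit of 6 libraries. None of the genes called here passed in the fit of 12 libraries, where their adjusted p by edgeR ran from 0.314 (Fbln1) to 0.638 (Bgn). Of 13 tested meningeal and perivascular fibroblast genes, 5 fell (Mgp by 0.79, Bgn by 0.55, Fbln1 by 0.93, Col6a1 by 0.56 and Aldh1a2 by 1.34 on the log2 scale) and 0 rose, with a median of -0.54. These encode matrix proteins apart from Aldh1a2, a retinoic acid synthase of meninges. Of 11 PDGF-B axis and pericyte genes, 2 fell, Anpep by 1.20 and Higd1b by 0.93, both expressed in brain pericytes. The 3 highest genes of this list by mean CPM did not pass. In the fit of 12 libraries Mcam was at 0.17, Cspg4 at 0.05 and Notch3 at -0.39 on the log2 scale. The sum of the list overlapped, at 895 to 1443 CPM in 2X cytokine and 1043 to 1325 CPM in 2X PBS. Of 11 smooth muscle contractile genes, 1 rose, the myosin light chain gene Myl9 at 0.55 ± 0.15 (adjusted p 0.0490 by edgeR). Of 10 basement membrane genes, 1 fell, the laminin chain gene Lama4 by 0.97, while Sparc averaged 1087 CPM and Lamb2 404 CPM over 12 libraries.

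Lists of endothelial function were read from that fit too, and their calls were likewise lost in the fit of 12 libraries, at an adjusted p by edgeR from 0.343 (Pgf) to 0.789 (Jam2). Of 4 tested endothelial activation genes, 3 fell: Icam1 and Vcam1, adhesion molecules for leukocytes, by 0.94 and 0.51, and Lrg1, a secreted glycoprotein, by 3.68. Vcam1 averaged 89.9 TPM over 12 libraries, against 3.20 TPM for the endothelial member Pecam1, and Lrg1 had 1.43 to 3.01 CPM in 2X cytokine and 26.4 to 44.4 CPM in 2X PBS. Lrg1 had 73.7, 1.15 and 0.55 CPM in 1X cytokine and 2.28, 114 and 131 CPM in 1X PBS, the same split of libraries as Lcn2. Which cells these activation genes came from was not tested. Of 9 tested VEGF and angiopoietin genes, 2 fell, the ligand gene Pgf by 0.90 and the co-receptor gene Nrp1 by 0.50. Of 16 tested barrier genes, 1 rose, Jam2 at 0.57 ± 0.12 (adjusted p 0.00946 by edgeR). Jam2 had 101 CPM in 1X cytokine replicate 1 and 95.3 and 96.3 CPM in 1X PBS replicates 2 and 3. These are the libraries with the lowest astrocyte sums, and the others had 162.5 to 361.7 CPM. The part of astrocytes in the Jam2 values was not tested. Of 4 tested endothelial transcription factor genes, 0 passed by edgeR and 2 had an unadjusted p under 0.05, and Klf4 averaged 37.2 CPM over 12 libraries.

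The comparison of 1 cytokine with 1 PBS injection asks for the response to a first stimulus. By edgeR on 12 libraries, 0 of 32 members passed, against 0% of all genes, and 5 members and 783 genes had an unadjusted p under 0.05. DESeq2 called 0 members and 2 genes. The fit of these 6 libraries alone also gave 0% called, with 245 genes at an unadjusted p under 0.05. Only Tek had no overlap, lower in 1X cytokine, at 2.95, 0.384 and 1.10 CPM against 3.04, 5.82 and 9.97 CPM in 1X PBS, beside 3.29% of all genes lower and 2.89% higher. This gap was narrow, in a gene of few counts, and in TPM Tek overlapped, with 3.05 TPM in 1X cytokine replicate 2 and 0.907 TPM in 1X PBS replicate 1. The median log2 fold change was -0.60 for the endothelial, 0.18 for the mural and 0.12 for the fibroblast members, against -0.011 for all genes.

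These values depended on replicate 1 of 1X cytokine and replicate 1 of 1X PBS, which stood apart from the other libraries of their groups. Without both, an alternative chosen after seeing the data, 2 libraries were left in each of these groups, and these are the ones whose Lcn2 ran against the label, at 11.5 and 3.85 CPM in 1X cytokine and 1076 and 776 CPM in 1X PBS. Then 23.5% of 14848 genes were called and 15 of 32 members: 12 endothelial members, Acta2, Tagln and Col3a1. Mfsd2a rose in 1X cytokine by 2.54 ± 0.19 (adjusted p 5.93e-07 by edgeR) and the other 14 fell, among them Vwf by 3.40 (SE 0.61), Tie1 by 3.37 (SE 0.74), Cldn5 by 1.79 (SE 0.45), Acta2 by 1.02 (SE 0.25) and Col3a1 by 1.53 (SE 0.25). The astrocyte sums of the libraries compared were 19430 and 22270 CPM in 1X cytokine and 7163 and 6662 CPM in 1X PBS. The part of that difference in the member values was not tested.

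Between 2X cytokine and 1X cytokine, which asks whether a second stimulus acts like the first, 0 of 32 members passed by edgeR, against 0.0276% of all genes (4). At an unadjusted p under 0.05 there were 4 members and 1015 genes, and DESeq2 called 0 members and 8 genes. The 6 libraries alone gave 0% called. Leaving out both libraries named above gave 0 members and 0.0202% of genes. Lum alone did not overlap, lower in 2X cytokine, beside 6.76% of all genes lower and 5.71% higher. All 6 fibroblast members had negative values, with a median log2 fold change of -0.68, and the 14 tested meningeal and perivascular fibroblast genes were also negative, with a median of -0.48, against -0.014 for all genes. None of these passed. Col1a1 and Col1a2 were at -0.13 and -0.21 and turned positive, to 1.23 and 0.66, without 1X cytokine replicate 1. They also turned without 2X cytokine replicate 2, to 0.21 and 0.001, and without 2X cytokine replicate 3, to 0.26 and 0.03.

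The 2X PBS and 1X PBS groups both received PBS on day 7 and differ by the earlier vehicle injection of 2X PBS. Between them, 0 of 32 members passed by edgeR in the fit of 12, against 0% of all genes. At an unadjusted p under 0.05 there were 9 members and 914 genes. DESeq2 called 0 members and 17 genes, and the 6 libraries alone gave 0% called. Members without overlap were Rgs5, Kcnj8, Abcc9, Vtn and Dcn, higher in 2X PBS beside 5.4% of all genes, and Cldn5, Cdh5 and Slc38a5, lower beside 6.05%. In TPM Cdh5 overlapped. Without the 2 libraries, 18 members passed, against 18.6% of all genes: Dcn (0.54 ± 0.16), Lum (1.40 ± 0.38) and Mfsd2a (1.75 ± 0.18) rose in 2X PBS, and 15 fell, with Cldn5 by 2.57 (SE 0.40). In that fit 2X PBS is set against 2 libraries of 1X PBS with the lowest astrocyte sums and the highest monocyte sums.

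The difference between the 2X and the 1X cytokine effect was tested as an interaction. By edgeR, 0 of 32 members passed, against 0% of all genes, with 9 members and 754 genes at an unadjusted p under 0.05, and DESeq2 called 0 members and 13 genes. Dcn had a difference of -1.37 ± 0.36 (adjusted p 0.729) and Cldn5 of 2.10 ± 0.79 (adjusted p 0.908). Without the 2 libraries, 12 members passed, against 9.33% of all genes. Of these, Mfsd2a, Dcn and Lum were negative, at -2.14, -0.89 and -2.05, and the 9 others, Acta2, Tagln, Cldn5, Ly6c1, Pecam1, Slc38a5, Tek, Tie1 and Vwf, were positive. In that fit 2X cytokine against 2X PBS gave 7.02% of genes and 6 members, Col3a1, Dcn, Emcn, Eng, Kcnj8 and Lum, all lower, at values close to those above, since its 2X libraries are the same. The comparisons share their control libraries, so their values are not independent.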

How the data were processed

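Per the labels' protocols, total RNA of sorted cells was made into libraries by SMART-Seq2, and the authors quantified reads on the GRCm38 transcriptome with kallisto 0.46.1. The deposited estimated counts per transcript are not normalised between libraries. The deposited TPM are scaled to one sum per library, and the deposited lengths are other values in bases. Per the labels' protocols the authors used DESeq2; their results were not used. Whether counting used strand is not given in those sources. The series also holds 19 ATAC-seq samples, which were not analysed here.

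Estimated counts were summed per gene and rounded. edgeR 4.0.16 (R 4.3.3) tested 14490 genes after filterByExpr and TMM scaling in a model of 4 group means, with Benjamini-Hochberg adjustment over all genes at 0.05. Standard errors are the log2 fold change over the root of F. CPM are on TMM-scaled totals; errors are SD unless SE is named. Depth and floors cover counting error only, since PCR copies were not separated, and p-values reflect only the spread among libraries, part of which may be technical. Tried in turn were RLE scaling, DESeq2 1.42.0, a filter at only 1 summed count, limma-trend (3.58.1) on log2(TPM + 1) where the mean TPM reached 1, a replicate block, the libraries of a comparison alone, each library left out, and 2 left out together. The edgeR fit was tested on simulated counts with the same spread for all genes and changes planted in 2X cytokine only. Simulated libraries of a group were alike, so that test does not cover groups that split as the 1X groups did. Members and lists were chosen with earlier results of these data known. All members may be named, and of other lists the 3 highest genes by mean CPM, genes called in either fit and all near-identical relatives. The bone list and its genes were added after their values were seen, and the neutrophil genes Ngp, Mmp8 and Ltf were named after theirs were. A permutation test of summed levels was planned and not made. Positions are from GENCODE M21, where 31 of 32 members had the same versioned identifier. Transcript shares were taken for members with at least 100 counts.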

Additional observations from a re-analysis of the deposited data

How the results depend on the processing

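Over the 5 comparisons, in the order single injection (1X cytokine over PBS), repeated injection (2X cytokine over PBS), cytokine 2X over 1X, vehicle 2X over 1X, and the interaction, edgeR called 0, 5, 4, 0 and 0 genes and 0 members in each. DESeq2 called 2, 114, 8, 17 and 13 genes, and 2 members for repeated injection. Without the filter on low counts there were 251, 460, 193, 97 and 70 genes and 1, 3, 1, 3 and 3 members. limma-trend on log2(TPM + 1) called 6, 6, 6, 1 and 1 genes; there the median log2 fold change of all genes was 0.12 for single injection, 0.15 for vehicle 2X over 1X and -0.12 for the interaction. The libraries of a comparison alone gave 0, 1065, 0 and 0 genes and 7 members for repeated injection. The replicate block gave 0, 2, 0, 0 and 0 genes and changed no member's call. Replicate numbers were not taken as pairs in the main fit. Deviations of same-numbered libraries from their group means correlated between -0.619 and 0.162. With 3 libraries per group, such correlations cannot decide whether samples were paired. RLE scaling left the counts of calls within 1.5 times. Leaving out both replicate 1 of 1X PBS and replicate 1 of 1X cytokine, chosen after seeing the data, gave 3489, 1042, 3, 2759 and 1386 genes and 15, 6, 0, 18 and 12 members.

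Leaving out 1 library at a time gave 0 to 1141, 0 to 125, 0 to 3, 0 to 1116 and 0 to 17 genes, and 0 to 4, 0 to 1, 0, 0 to 4 and 0 members. The highest counts, other than for cytokine 2X over 1X, came without 1X PBS replicate 1, where Flt1, Mfsd2a, Pecam1 and Tie1 passed for single injection, Dcn for repeated injection, and Cldn5, Kdr, Mfsd2a and Pecam1 for vehicle 2X over 1X. The cause was not tested. In the order above, 17, 9, 15, 2 and 9 of 32 members changed the sign of their fold change in at least 1 setting. For repeated injection these were Acta2, Col1a1, Col1a2, Egfl7, Esam, Flt1, Tagln, Tie1 and Vwf. Leaving out 1 library gave Acta2 from -0.15 to 0.16 and Tagln from -0.10 to 0.25 there, and Col1a1 was at -0.43 without 2X cytokine replicate 1, against 0.76 with it. The 7 members called in the fit of 6 libraries were negative in each setting run. Depth limits the endothelial members most: Tek, Tie1, Ly6c1, Slc38a5, Egfl7 and Vwf had 3 or fewer counts in some library, so values there rest on few reads.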
